A study of Mus musculus with 7 samples.

Results

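The genes described here encode the acidification machinery, the enzymes and the membrane of the lysosome, together with regulators of its formation and of autophagy. There are 43 of them among the 49585 gene rows of each library, picked by symbol for their known role, with no threshold on their values. They were chosen with earlier results of these data known. By role they fall into 15 genes of the proton pump, 15 of hydrolases and other proteins of the lysosomal lumen, 7 of membrane proteins and 6 of regulators and autophagy. RNA sequencing libraries were made from MS-1 cells, an immortalised mouse endothelial line from pancreatic islets, grown in DMEM. There were 4 libraries of cells labelled as overexpressing LPL, the lipase that frees fatty acids from lipoprotein triglyceride, and 3 libraries of wild-type control cells of the same line. The labels give neither the LPL construct nor a vector-only control, they do not say whether a group is a clone or a pool, and they do not say whether libraries of a group came from separate cultures. The p-values therefore measure the spread between these libraries, which may be technical.

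Lysosomes are acidified by the vacuolar ATPase, a rotary pump with a peripheral V1 sector that splits ATP and a membrane V0 sector that carries protons. Acid hydrolases then digest what endocytosis and autophagy deliver, inside a membrane lined with heavily glycosylated proteins. In mammals many of these genes share an E-box variant, the CLEAR element, bound by the MiT transcription factors TFEB, TFE3, TFEC and MITF, and the same factors act in melanocytes, whose melanosomes are made from the endosomal system. Endothelial cells use lysosomes in the breakdown of lipoproteins and of receptors taken up from the surface.

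Sense-strand reads numbered 24328418 to 29210847 per library with LPL overexpression and 26514501 to 28104402 in the controls. Lpl itself had between 10867 and 12753 counts in each LPL overexpression library and between 1 and 6 in each control. All 10 endothelial markers had reads in both groups, and their summed level was 3687 to 3807 TPM with LPL overexpression and 4374 to 4419 TPM in the controls, where TPM is transcripts per 1000000. Of these markers 1 rose (Esam) and 7 fell. Markers of another cell type moved with the groups. All 10 pigment-cell genes looked at (Tyrp1, Dct, Mlana, Tyr, Pmel, Slc45a2, Slc24a5, Oca2, Gpr143 and Mlph) rose, with a summed level of 2180 to 2300 TPM in the LPL overexpression libraries and 1.29 to 1.72 TPM in the controls, where 6 of them had 0 reads in all 3 libraries. The 5 fibroblast genes summed to 1.74 to 2.06 TPM with LPL overexpression and 1.17 to 1.44 TPM in the controls, and 1 of them (Col1a2) rose. Every change described below was measured in those same 4 libraries, and the part of pigment-cell RNA in it was not tested. In bulk RNA, fewer cells of a type cannot be told apart from less RNA per cell.

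The promoters of these genes carried the CLEAR core more often than promoters at large. RefSeq promoter windows of 300 bases on GRCm38.p6, from 250 before to 50 after the start, were matched by symbol for 38 of the 43 genes, in 45 entries. For 32 of the 38 the nearest RefSeq start lay within 200 bases of the start of the gene as counted. The largest distance was 1176 bases, for Scarb2. The CLEAR core, spelled TCACGTGA on both strands, stood in the windows of 7 of the 38 genes (18.4%), against 1.12% of all 27025 genes with a window and 2.19% of the 9751 of them that were tested for expression. The E-box CACGTG, which lies inside the CLEAR core, stood in 12 of 38 (31.6%), against 8.09% of all genes and 11.9% of those tested. The M-box core TCATGTG, with its reverse complement CACATGA, stood in 6 (15.8%), against 4.31% and 2.71%. The CLEAR element is known from lysosomal genes, many of which are in this list, so these shares are a description of the list. A match is no evidence of binding.

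**Figure D1:**
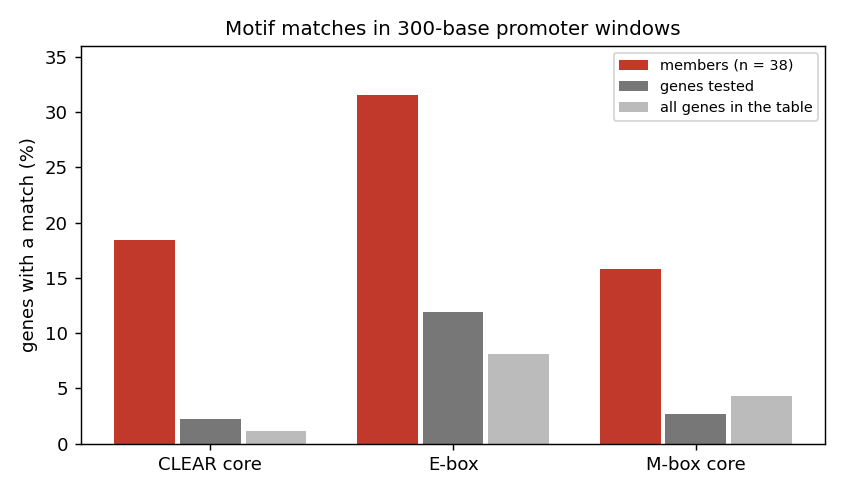
Percentage of genes whose 300-base RefSeq promoter window holds each motif on either strand, for the 38 members with a window, for the 9751 genes tested and for all 27025 genes. For the CLEAR core the member bar stands at 18.4% and the other bars at 2.19% and 1.12%.

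The windows of 5 genes are printed from 250 bases before the start to 30 after it, 5′ to 3′ on the gene's strand, because they set different motif content beside different changes in expression. The choice used the fold changes, so these 5 windows do not show how motif and change relate among the members. Matches to the CLEAR core or the E-box are in capitals and positions count from the start, with the preceding base as -1. Atp6v0d1 has a CLEAR core at -4, across the start, and was among the largest rises of the pump. Atp6v0b has E-boxes at -36 and -18 and Lamp1 has them at -61, -45, -28 and -15, and both genes changed little. Mcoln1 has an E-box at -71 and a CLEAR core at -46, and its level was close between the groups. Gpnmb, with the largest rise of all members, has none of the 3 motifs in this window.
Atp6v0d1, GRCm38.p6 chr8:105566035-105566314, minus strand: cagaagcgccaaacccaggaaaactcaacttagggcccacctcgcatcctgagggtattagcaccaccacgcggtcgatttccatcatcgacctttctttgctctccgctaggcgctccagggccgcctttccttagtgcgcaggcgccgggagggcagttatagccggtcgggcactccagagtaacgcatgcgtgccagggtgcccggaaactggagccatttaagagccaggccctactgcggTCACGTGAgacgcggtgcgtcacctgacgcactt
Atp6v0b, GRCm38.p6 chr4:117887300-117887579, minus strand: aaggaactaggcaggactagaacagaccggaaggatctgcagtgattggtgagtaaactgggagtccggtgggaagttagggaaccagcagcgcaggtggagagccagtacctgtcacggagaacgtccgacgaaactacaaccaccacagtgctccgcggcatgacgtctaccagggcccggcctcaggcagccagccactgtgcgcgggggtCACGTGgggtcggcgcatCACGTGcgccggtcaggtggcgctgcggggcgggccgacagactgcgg
Lamp1, GRCm38.p6 chr8:13158911-13159190, plus strand: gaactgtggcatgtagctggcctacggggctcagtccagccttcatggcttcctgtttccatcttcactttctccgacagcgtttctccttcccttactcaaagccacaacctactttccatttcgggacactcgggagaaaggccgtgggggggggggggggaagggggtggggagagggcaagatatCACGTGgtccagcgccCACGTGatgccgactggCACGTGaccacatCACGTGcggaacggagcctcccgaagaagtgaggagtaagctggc
Mcoln1, GRCm38.p6 chr8:3500269-3500548, plus strand: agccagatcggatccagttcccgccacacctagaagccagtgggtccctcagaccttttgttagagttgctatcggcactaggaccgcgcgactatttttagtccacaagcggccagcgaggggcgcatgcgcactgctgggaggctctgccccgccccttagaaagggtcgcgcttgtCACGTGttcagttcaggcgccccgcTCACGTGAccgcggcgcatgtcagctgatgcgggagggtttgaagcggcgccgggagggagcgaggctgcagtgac
Gpnmb, GRCm38.p6 chr6:49036268-49036547, plus strand: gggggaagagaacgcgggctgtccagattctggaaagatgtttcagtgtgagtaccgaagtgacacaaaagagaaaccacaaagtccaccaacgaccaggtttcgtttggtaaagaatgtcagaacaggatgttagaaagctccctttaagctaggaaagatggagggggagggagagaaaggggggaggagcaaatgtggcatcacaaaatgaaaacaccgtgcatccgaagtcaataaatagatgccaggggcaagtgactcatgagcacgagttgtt

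Of the 43 members 41 passed the filter on low counts, and 22 of these changed with LPL overexpression, 19 higher and 3 lower. That is 53.7% of the tested members changed, 46.3% higher and 7.32% lower, against 43.2% of all 13639 genes tested, 21.9% higher and 21.3% lower. Since the members were chosen with earlier results of these data known, these shares are a description of the list. With limma on log2(TPM + 0.5), 3304 of all genes were called higher and 2082 lower, against 2988 and 2900 with edgeR, and 23 members were higher and 3 lower. The median log2 fold change was 0.07 over the tested members and 0.00 over all genes tested, and 33 of the 41 values were positive. Of the 22 called members 7 differed by less than 1.1-fold, as did 1412 of the 5888 called among all genes, and after Gpnmb (15.9-fold) the largest change was that of Atp6v0a1 (1.74-fold). TPM ranges of the groups did not overlap for 23 members higher and 2 lower, where all genes tested gave 27.3% and 17.6%. Summed over the 43 genes, the level was 7848 to 8023 TPM in the LPL overexpression libraries and 7306 to 7446 TPM in the controls. Without Gpnmb it was 7733 to 7902 TPM with LPL overexpression and 7298 to 7438 TPM in the controls.

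**Figure D2:**
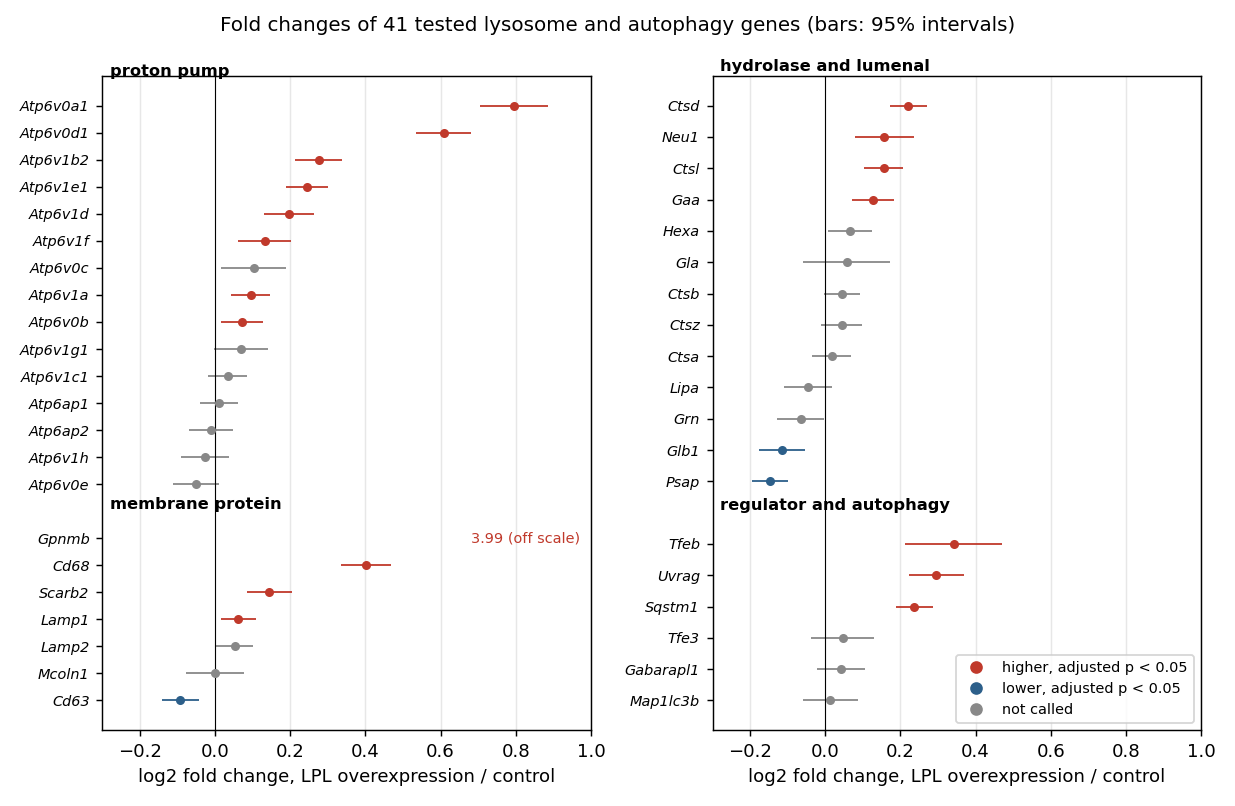
Log2 fold change of LPL overexpression over control for the 41 tested members by role, from edgeR, with bars for 95% intervals. Red points are higher and blue points lower at adjusted p < 0.05. Gpnmb lies off the scale at 3.99, and Atp6v0a1 and Atp6v0d1 stand apart from the other pump genes.

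Members with and without the motif were set side by side. Of the 7 members with a CLEAR core (Atp6v0d1, Atp6v0e, Atp6v1a, Ctsa, Ctsd, Gla and Mcoln1), 3 rose and 0 fell with LPL overexpression, with a median log2 fold change of 0.06. Of the 29 tested members with a window and no CLEAR core, 15 rose and 3 fell (median 0.07). Of all 13639 genes tested, 21.9% rose and 21.3% fell (median 0.00). The difference between members with and without the core was not tested. Atp6v0a1, counted as without, has its RefSeq start 946 bases from the start of the gene as counted. The CLEAR cores of Ctsa lie in an entry 900 bases from that gene's start. Atp6v1a and Ctsd, counted as with and both higher, have RefSeq starts 446 and 211 bases from the counted starts. For Scarb2, Cd63 and Ctsl, counted as without, the distances were 1176, 426 and 214 bases.

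Among the 15 proton pump genes of the list, the largest rises were those of Atp6v0a1 and Atp6v0d1, both of the membrane sector. Of the 15, 8 rose, 0 fell and 7 did not pass (53.3% changed, against 43.2% of all genes tested), with a median log2 fold change of 0.09. By direction 53.3% were higher and 0% lower, against 21.9% and 21.3% of all genes tested. The pigment-cell genes summed to at least 2180 TPM in the 4 libraries of these rises, and their part in the result was not tested. The summed level of the 15 genes was 1954 ± 16.9 TPM (SD, n = 4) with LPL overexpression and 1771 ± 12.7 TPM (SD, n = 3) in the controls.

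Atp6v0a1, on the plus strand of chromosome 11 (101009452 to 101063719, mm10), encodes an isoform of the a subunit, which couples the stator to the proton channel. It stood at 23.3, 20.9, 22.1 and 24.2 TPM in the LPL overexpression libraries, against 13.6, 12.6 and 12.2 TPM in the controls. All LPL overexpression libraries lay above all controls. The log2 fold change was 0.80 (SE 0.05, adjusted p = 7.46e-20), or 1.74-fold. Atp6v0d1, on the minus strand of chromosome 8 (105524465 to 105566047), encodes the d subunit that joins the central stalk to the proteolipid ring. It stood at 127, 121, 124 and 128 TPM with LPL overexpression, against 80.5, 78.2 and 83.1 TPM in the controls. Again the groups were far apart, with a log2 ratio of 0.61 (SE 0.04, adjusted p = 1.33e-19), or 1.52-fold. Of the other V0 genes, Atp6v0b, a proteolipid of the ring, had a log2 ratio of 0.07 (SE 0.03, adjusted p = 0.0400). DESeq2 did not call it (adjusted p = 0.115), and neither did the edgeR fits that left out control replicate 1 (0.301) or 2 (0.121), or replicate 1 (0.0973) or 4 (0.0653) of LPL overexpression. The ring's main proteolipid Atp6v0c (0.10, SE 0.04, adjusted p = 0.0554) and the small subunit gene Atp6v0e (-0.05, SE 0.03, adjusted p = 0.199) did not pass. Atp6v0c passed once control replicate 1 (0.0176) or LPL overexpression replicate 2 (0.0131) or 3 (0.0479) was left out.

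In the V1 sector 5 of 8 genes rose (62.5%, against 21.9% of all genes tested), none by more than 1.21-fold. Atp6v1b2, which encodes the B subunit of the catalytic head, stood at 55.7, 54.3, 56.5 and 57.4 TPM in the LPL overexpression libraries and at 45.4, 45.9 and 44.7 TPM in the controls. The log2 fold change was 0.28 (SE 0.03, adjusted p = 3.43e-10) and the groups did not overlap. Atp6v1e1, a peripheral stalk subunit, stood at 108, 111, 109 and 106 TPM with LPL overexpression, against 87.6, 91.9 and 90.4 TPM in the controls, a log2 ratio of 0.24 (SE 0.03). Smaller rises were measured for Atp6v1d of the central stalk (0.20, SE 0.03), for Atp6v1f (0.13, SE 0.04) and for Atp6v1a, the ATP-splitting subunit (0.09, SE 0.03). Atp6v1c1, Atp6v1g1 and Atp6v1h had log2 fold changes of 0.03, 0.07 and -0.03 and did not pass. Nor did the accessory subunit genes Atp6ap1 and Atp6ap2, at 0.01 and -0.01, and their 95% intervals (-0.04 to 0.06 and -0.07 to 0.05) leave out the changes of Atp6v0a1 and Atp6v0d1.

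Levels per unit length also differed among pump genes. Atp6v1c1 was the highest, at 264 ± 5.25 TPM (SD, n = 4) with LPL overexpression and 254 ± 8.19 TPM (SD, n = 3) in the controls. Atp6v0a1 was the lowest in both groups. Among isoforms of subunit a, Atp6v0a1 made up 11.9% to 13.4% of the summed TPM in LPL overexpression libraries and 8.23% to 9.14% in controls. The isoform gene Atp6v0a2 made up 35.2% to 36.3% with LPL overexpression and 40.2% to 40.8% in controls, so its share was lower, while its level was 61.8 to 65.6 TPM with LPL overexpression and 59.7 to 60.4 TPM in controls. Most of the rest was Tcirg1, whose product also serves osteoclasts. Atp6v0d2, the other d isoform, had 0 reads in all 7 libraries.

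Of 22 further genes of the pump and its assembly, 17 were tested, of which 6 rose and 3 fell (median log2 fold change 0.07). Changes were called in 52.9% of the 17, against 43.2% of all genes tested. By direction 35.3% were higher and 17.6% lower, against 21.9% and 21.3%. Dmxl2, a subunit of the rabconnectin complex that assembles the pump, stood at 14.5, 14.2, 14.4 and 14.9 TPM with LPL overexpression, against 5.02, 4.95 and 4.74 TPM in the controls. That was a log2 ratio of 1.53 (SE 0.04, adjusted p = 3.66e-34). Atp6v0e2, the second isoform of subunit e, had a log2 ratio of 1.40 (SE 0.07). Its share of subunit e was 17.0% to 18.0% with LPL overexpression and 6.76% to 7.41% in controls. Tcirg1 rose as well (0.27, SE 0.03). Oxr1, whose TLDc domain class binds the pump, fell, with a log2 ratio of -0.32 (SE 0.03).

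**Figure D3:**
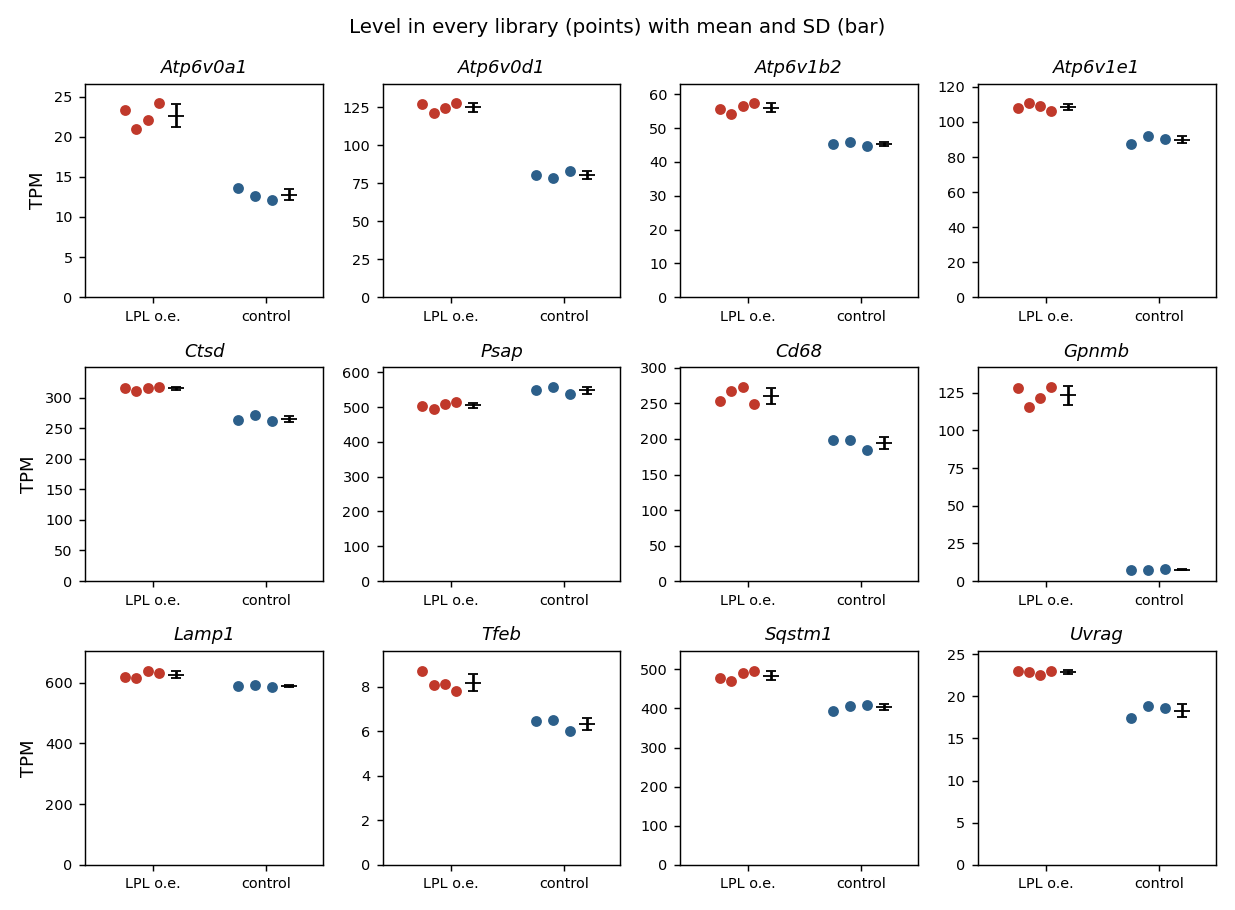
TPM of 12 members in each of 4 LPL overexpression and 3 control libraries (points), with the mean and SD beside them and each axis starting at 0. The groups do not overlap in any panel, with Psap alone lower with LPL overexpression. All 12 are members called as changed, and members whose groups overlap, such as Cd63, Tfe3 and Map1lc3b, are not drawn. Of all genes tested, 44.9% had groups that do not overlap. As a ratio of the means, the gap ranges from that of Gpnmb (123 against 7.63 TPM) to that of Lamp1 (626 against 589 TPM).

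Among genes of hydrolases and other lumenal proteins the largest rise was that of Ctsd and the largest fall that of Psap. Of 15 genes 13 were tested, of which 4 rose, 2 fell and 7 did not pass (46.2% changed, against 43.2% of all genes tested), with a median log2 fold change of 0.04. By direction 30.8% were higher and 15.4% lower, against 21.9% and 21.3% of all genes tested. The summed level was 2891 ± 44.4 TPM (SD, n = 4) with LPL overexpression and 2785 ± 24.8 TPM (SD, n = 3) in the controls, and the pigment-cell genes, summing to at least 2180 TPM against at most 1.72 TPM, moved with the same libraries. Ctsd, on chromosome 7, encodes the aspartic protease cathepsin D. It stood at 316, 312, 316 and 318 TPM in the LPL overexpression libraries, against 263, 271 and 262 TPM in the controls, a log2 ratio of 0.22 (SE 0.03, adjusted p = 1.96e-10). The other rises were in Ctsl, a cysteine protease gene (0.16, SE 0.03), Neu1, a sialidase gene (0.16, SE 0.04), and Gaa, the gene of the glycogen-degrading acid alpha-glucosidase (0.13, SE 0.03).

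The members of this group that fell were Psap and Glb1, which with Cd63 are the 3 members lower in all and are given in full here because of that, a choice made after their values were seen. Psap, on chromosome 10 (60277627 to 60302597), encodes the precursor of the saposins that help break down sphingolipids. It stood at 504, 494, 508 and 513 TPM with LPL overexpression, against 550, 558 and 537 TPM in the controls, so that the groups did not overlap. The log2 fold change was -0.15 (SE 0.02, adjusted p = 1.21e-06). Glb1, the gene of lysosomal beta-galactosidase, stood at 88.7, 92.0, 88.9 and 91.2 TPM with LPL overexpression and at 96.6, 96.7 and 94.6 TPM in the controls (log2 fold change -0.12, SE 0.03).

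Ctsa, Ctsb, Ctsz, Hexa, Gla, Lipa and Grn did not pass, with log2 fold changes from -0.07 for Grn, the progranulin gene, to 0.07 for Hexa. Grn passed, lower, once LPL overexpression replicate 4 was left out (adjusted p = 0.00693), and Hexa passed, higher, without control replicate 3 (0.0230) or LPL overexpression replicate 2 (0.00293). Lipa, the acid lipase gene that frees cholesterol and fatty acids from internalised lipoproteins, stood at 92.1, 87.9, 91.6 and 89.4 TPM with LPL overexpression and at 92.3, 88.1 and 93.8 TPM in the controls. These ranges overlap, and the log2 fold change of -0.05 (SE 0.03) has a 95% interval from -0.11 to 0.02. The remaining cathepsin genes were near absent. Ctss, a protease of antigen-presenting cells, had 0 reads in all 7 libraries. Ctsk, the collagen-degrading protease of osteoclasts, had 2, 4, 4 and 3 counts with LPL overexpression and 11, 4 and 0 counts in the controls. Of 10 macrophage and blood markers and 5 osteoclast markers, 0 passed the filter on low counts. The macrophage and blood markers summed to 0.634 to 1.03 TPM with LPL overexpression and 0.347 to 0.771 TPM in the controls, and the osteoclast markers to at most 0.120 TPM in any library.

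Of 40 further hydrolase and lumenal genes, 39 were tested, of which 20 rose and 2 fell (median log2 fold change 0.09). Those changed made up 56.4%, against 43.2% of all genes tested, with 51.3% higher and 5.13% lower, against 21.9% and 21.3%. Ppt2, a thioesterase gene, stood at 22.5, 21.4, 21.0 and 21.8 TPM with LPL overexpression and at 12.4, 11.9 and 11.7 TPM in the controls (log2 fold change 0.82, SE 0.06, adjusted p = 5.88e-16). Pla2g15, the gene of a lysosomal phospholipase, had a log2 ratio of 0.65 (SE 0.06), and Naglu, which acts on heparan sulfate, of 0.31 (SE 0.04). Ctsc, the gene of dipeptidyl peptidase 1, had 150 counts over the LPL overexpression libraries and 0 over the controls. Against a floor of 3 counts over the control group it was at least 38.7-fold higher. Of 27 genes that sort hydrolases to lysosomes or related organelles, 11 rose and 2 fell (median 0.06). Changed were 48.1%, against 43.2% of all genes tested, with 40.7% higher and 7.41% lower, against 21.9% and 21.3%. Among the sorting genes that changed were Sort1, a sorting receptor gene (1.26, SE 0.06), Gga2 (0.41, SE 0.04), Igf2r, the large mannose-6-phosphate receptor gene (0.27, SE 0.04), and Ap1s1, which fell (-0.18, SE 0.02).

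Among membrane proteins Gpnmb had by far the largest change, and the structural glycoproteins of the membrane had small ones. Of 7 genes 4 rose, 1 fell and 2 did not pass (median log2 fold change 0.06). The share changed was 71.4%, against 43.2% of all genes tested, with 57.1% higher and 14.3% lower, against 21.9% and 21.3%. Gpnmb, on the plus strand of chromosome 6 (49036546 to 49070929), encodes a glycoprotein of melanosomes and of lysosomes in macrophages. It stood at 128, 115, 121 and 129 TPM in the LPL overexpression libraries, against 7.48, 7.65 and 7.75 TPM in the controls. The log2 fold change was 3.99 (SE 0.04, adjusted p = 6.78e-46), or 15.9-fold. By level it was the 40th of the 43 members in the controls and the 22nd with LPL overexpression. The pigment-cell genes were at 2180 TPM or more in the same libraries and at most 1.72 TPM in the controls, and their part in this rise was not tested.

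Cd68, on chromosome 11, encodes a mucin-like protein of late endosomes that is abundant in macrophages. It stood at 254, 267, 273 and 250 TPM with LPL overexpression, against 199, 199 and 184 TPM in the controls, a log2 ratio of 0.40 (SE 0.03, adjusted p = 4.30e-14), or 1.32-fold. The macrophage and blood markers summed to 0.634 to 1.03 TPM with LPL overexpression and 0.347 to 0.771 TPM in the controls. Of these markers, Cd14 had 39 counts over the LPL overexpression libraries and 17 over the controls, and Csf1r had 2 and 0. Ptprc had at most 4 counts over each group and Adgre1 had 0 reads in all 7 libraries. The part of such cells in the rise of Cd68 was not tested. Scarb2, the gene of the receptor that carries glucocerebrosidase to lysosomes, rose by less (0.14, SE 0.03, adjusted p = 1.07e-04).

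Lamp1, the second most abundant member, encodes a main glycoprotein of the lysosomal membrane. It stood at 620, 616, 639 and 631 TPM with LPL overexpression and at 587, 594 and 585 TPM in the controls. The groups did not overlap, but the log2 fold change was 0.06 (SE 0.02, adjusted p = 0.0313), and the call ended without control replicate 1 (0.124), control replicate 2 (0.0531) or LPL overexpression replicate 3 (0.105). Lamp2, its close relative, had 0.05 (SE 0.03, adjusted p = 0.0899, or 0.0391 without LPL overexpression replicate 1). Mcoln1, the gene of the lysosomal calcium channel, stood at 18.3, 18.2, 18.6 and 19.1 TPM with LPL overexpression and at 18.1, 18.2 and 18.3 TPM in the controls. Its log2 fold change of 0.00 (SE 0.04) has a 95% interval from -0.08 to 0.08. Cd63, a tetraspanin gene of late endosomes and the most abundant member, fell, with a log2 ratio of -0.09 (SE 0.03, adjusted p = 0.00220). It stood at 1211, 1198, 1243 and 1195 TPM in the LPL overexpression libraries and at 1227, 1294 and 1283 TPM in the controls, where the lowest control lay within the other group's range.

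Of 36 further lysosomal membrane genes, 31 were tested, of which 11 rose and 3 fell (median log2 fold change 0.07). Changes were called in 45.2% of the 31, against 43.2% of all genes tested. By direction 35.5% were higher and 9.68% lower, against 21.9% and 21.3%. Mcoln2, a paralogue of Mcoln1, had 216 counts over the LPL overexpression libraries and 18 over the controls (3.15, SE 0.28, adjusted p = 5.48e-14). Ostm1, which pairs with the chloride transporter of lysosomes, stood at 24.5, 25.5, 25.9 and 22.4 TPM with LPL overexpression and at 16.0, 15.6 and 16.3 TPM in the controls (0.59, SE 0.04). Hgsnat (-0.28, SE 0.03), an acetyltransferase gene of heparan sulfate breakdown, and the endolysosomal cation channel gene Tpcn1 (-0.31, SE 0.03) fell.

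**Figure D4:**
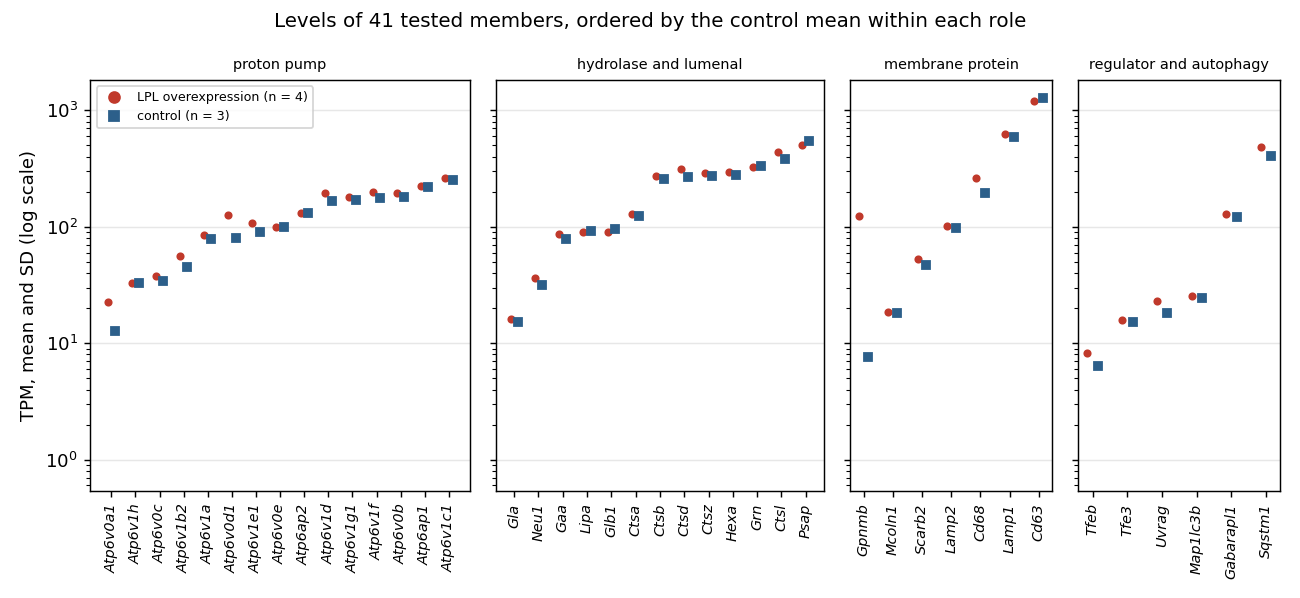
Mean TPM of the 41 tested members on a log scale, with SD, in LPL overexpression (n = 4, circles) and control libraries (n = 3, squares), ordered by the control mean within each role. The order of the levels is nearly the same in both groups apart from Gpnmb, at 123 TPM with LPL overexpression and 7.63 TPM in controls.

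Of the regulators and autophagy genes Tfeb, Uvrag and Sqstm1 rose and Tfe3, Map1lc3b and Gabarapl1 did not pass, with a median log2 fold change of 0.14 over the 6. Of these 50% changed, against 43.2% of all genes tested, with 50% higher and 0% lower, against 21.9% and 21.3%. Tfeb, on the plus strand of chromosome 17 (47737030 to 47792419), encodes the transcription factor best known for driving lysosomal genes. It was the least abundant tested member, at 8.72, 8.06, 8.11 and 7.82 TPM with LPL overexpression and at 6.47, 6.51 and 5.999 TPM in the controls. The log2 fold change was 0.34 (SE 0.07, adjusted p = 2.17e-05), or 1.27-fold. Tfe3, its paralogue on the X chromosome, stood at 16.5, 14.6, 16.0 and 16.4 TPM with LPL overexpression and at 15.8, 14.6 and 14.8 TPM in the controls. These ranges overlap (log2 fold change 0.05, SE 0.04, adjusted p = 0.405).

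The other members of the same factor family rose as well, in the libraries in which the pigment-cell genes summed to 2180 TPM or more, whose part in this was not tested. Mitf, known as the melanocyte member, stood at 24.0, 23.3, 24.5 and 23.5 TPM with LPL overexpression, against 1.199, 1.08 and 1.53 TPM in the controls (log2 fold change 4.20, SE 0.07, adjusted p = 6.87e-44). Tfec had a log2 ratio of 0.19 (SE 0.04, adjusted p = 5.71e-05) from a higher level, at 25.8, 27.0, 27.1 and 26.5 TPM with LPL overexpression and 22.8, 23.03 and 22.7 TPM in the controls. The family summed to 73.0 to 75.8 TPM in the LPL overexpression libraries and to 45.1 to 46.3 TPM in the controls. Mitf made up 31.7% to 32.3% of that sum with LPL overexpression and 2.40% to 3.39% in controls, and Tfec, the largest share in each group, 34.4% to 37.0% and 49.3% to 50.9%. Tfeb made up 10.5% to 11.6% with LPL overexpression and 13.3% to 14.4% in controls, so its share was lower while its level was higher.

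**Figure D5:**
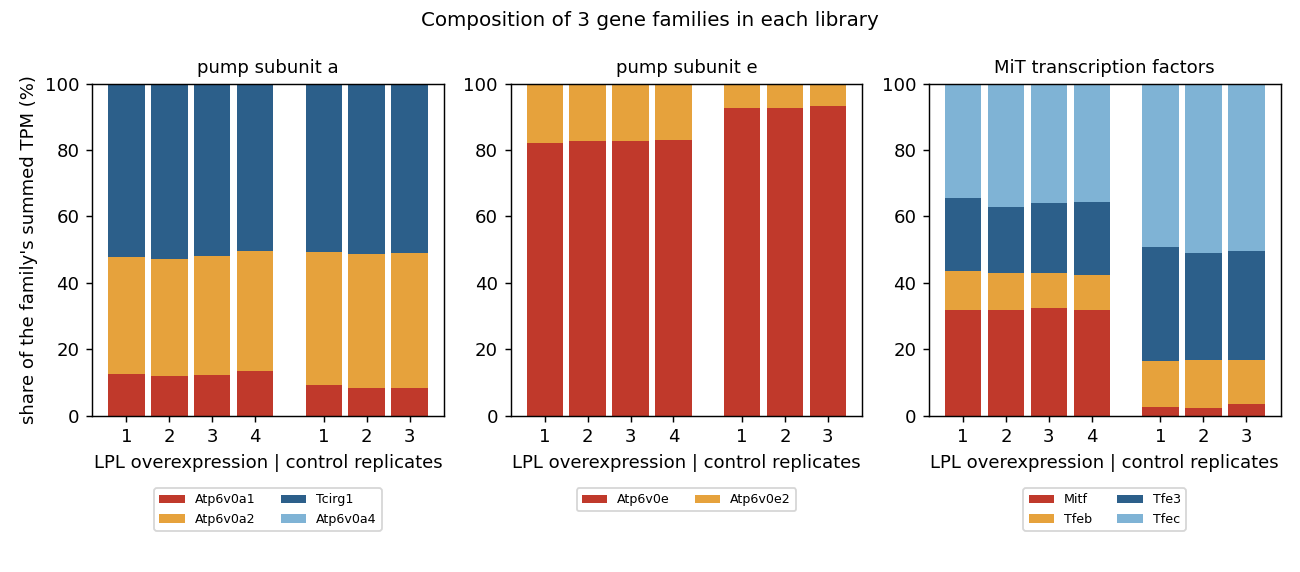
Share of each gene in the summed TPM of its family in each library, for isoforms of pump subunit a, isoforms of pump subunit e and the MiT transcription factors, with 4 LPL overexpression libraries left of 3 controls. Mitf makes up 31.7% to 32.3% of its family with LPL overexpression and 2.40% to 3.39% in controls, and Atp6v0e2 17.0% to 18.0% and 6.76% to 7.41% of subunit e.

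Of 23 further genes of this family and of the nutrient-sensing kinase complex that holds it in the cytoplasm, 5 rose and 4 fell (median log2 fold change 0.04). That is 39.1% changed, near the 43.2% of all genes tested, with 21.7% higher and 17.4% lower, against 21.9% and 21.3%. Rragd, one of the Rag GTPases that recruit these factors to lysosomes, had 266 counts over the LPL overexpression libraries and 0 over the controls, at least 68.6-fold higher against the floor of 3 counts. Its relatives Rraga and Rragc, at 97.5 and 93.5 TPM with LPL overexpression and 92.6 and 88.7 TPM in controls on average, did not pass. Ywhag, a 14-3-3 gene, fell (-0.13, SE 0.02).

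Sqstm1, on the minus strand of chromosome 11 (50199366 to 50210827), encodes the autophagy receptor p62. It stood at 478, 471, 490 and 497 TPM in the LPL overexpression libraries and at 394, 407 and 408 TPM in the controls, a log2 ratio of 0.24 (SE 0.03, adjusted p = 2.05e-11). Uvrag, a subunit gene of the lipid kinase complex that acts in autophagy and endosome maturation, stood at 23.03, 22.9, 22.6 and 23.04 TPM with LPL overexpression, against 17.4, 18.9 and 18.6 TPM in the controls (0.30, SE 0.04, adjusted p = 3.88e-09). In both genes all LPL overexpression libraries lay above all controls. Map1lc3b, the gene of the LC3 protein attached to autophagosomes, stood at 24.1, 25.3, 25.9 and 26.2 TPM with LPL overexpression and at 25.3, 24.1 and 24.6 TPM in the controls, with overlapping ranges and a log2 ratio of 0.01 (SE 0.04, 95% interval -0.06 to 0.09). Gabarapl1, of the same protein family, had 0.04 (SE 0.03, adjusted p = 0.317).

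Of 48 further autophagy genes 47 were tested, of which 12 rose and 3 fell (median log2 fold change 0.05). That is 31.9% changed, against 43.2% of all genes tested, with 25.5% higher and 6.38% lower, against 21.9% and 21.3%. Tecpr1, which acts at the joining of autophagosomes and lysosomes, stood at 24.7, 20.8, 23.7 and 22.5 TPM with LPL overexpression and at 12.2, 11.3 and 11.5 TPM in the controls (0.94, SE 0.04, adjusted p = 3.13e-16). Vps41, a subunit of the tethering complex of late endosomes, rose (0.23, SE 0.04), as did Gabarap (0.16, SE 0.03), which made up 62.4% to 63.4% of the summed TPM of its family with LPL overexpression and 60.5% to 60.9% in controls. Wipi2, a phosphoinositide-binding gene of early autophagosomes, fell (-0.22, SE 0.03).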

How the data were processed

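Total RNA of 7 MS-1 libraries was sequenced after preparation with the TruSeq stranded kit, per the labels' protocols. The authors mapped reads to mm10 using STAR, per the submitters' processing notes. The sources used here do not name versions or the gene annotation. The deposited read counts per gene are raw whole numbers, and the deposited TPM values sum to 1000000 in each library, per the file headers and the values. Reverse-orientation reads, the sense strand of this kit, were used and made up 97.0% to 97.1% of oriented reads in each library.

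In R 4.3.3, edgeR 4.0.16 fitted the counts by quasi-likelihood (TMM factors, filterByExpr, robust dispersion) with the group as the only term. Its F test was adjusted by Benjamini-Hochberg over 13639 genes, and a gene was called under 0.05. Each SE was derived from F as the size of the log2 fold change divided by the root of F, and 95% intervals are normal ones from that SE. A log2 ratio in the text is the same fitted log2 fold change. Levels are TPM, which are scaled differently from TMM, so small differences in TPM and fold change need not match. The edgeR step was tested on simulated counts. Alternatives used limma 3.58.1, DESeq2 1.42.0, other factors, no filter, both orientations, a replicate block and fits without each library. Symbols were matched exactly, or through RefSeq synonyms for 2 list genes (Tmem55b and Calcoco2), and Vamp7 was not analysed here. The spans of 9 members overlap another gene on the same strand, and reads shared with such genes or with pseudogene copies are uncertain.

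Levels in every library are given for called members with an absolute log2 fold change of at least 0.2, for Lamp1, Tfeb, Tfe3, Sqstm1 and Map1lc3b, and for the lowest member of each role. Of each list of further genes, up to 4 with the lowest adjusted p are named, with Mitf and Tfec. Lipa, Rraga, Rragc and the proton pump's isoforms were added after values were seen. Members and lists were chosen with earlier results of these data known. Each tested member had at least 273 counts in every library. Libraries of a group differed by more than counting error (chi-square per degree of freedom 1.64 to 4.10), and the fitted errors include that spread.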

Additional observations from a re-analysis of the deposited data

How the results depend on the processing

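Of the 22 called members 20 kept their call and direction in all 15 alternatives, and 2, Atp6v0b and Lamp1, lost it in at least 1, both with the replicate block among others (adjusted p = 0.0859 and 0.0510). Members higher numbered 18 with DESeq2, 24 with upper-quartile factors, 23 with limma on log2(TPM + 0.5) and between 17 and 21 without any 1 library, and members lower 3 or 4. Of all calls 50.7% were higher, or 61.3% with limma on log2(TPM + 0.5) (3304 higher, 2082 lower) and 59.2% with upper-quartile factors. Same-numbered libraries did not deviate together (r between -0.0391 and 0.0193), and with a replicate block 17 members were higher and 4 lower. Of the 19 members not called 7 were called in at least 1 alternative, and the direction turned in 6 others that none of them called. Log2 fold changes without 1 library ranged from -0.0504 to 0.0129 for Atp6v1h, from -0.00679 to 0.0312 for Atp6ap1, from -0.0285 to 0.00895 for Atp6ap2, from -0.00143 to 0.0328 for Ctsa, from -0.00814 to 0.0129 for Mcoln1 and from -0.00361 to 0.0368 for Map1lc3b. With the block they were -0.0125 for Mcoln1 and -0.00111 for Map1lc3b. Atp6ap2 was at 0.0121 with upper-quartile factors and at 0.0163 and 0.0162 with limma on log2(TPM + 0.5) and log2(TPM + 1). The cause was not tested. Ctss and Ctsk, with at most 11 counts in a library, did not pass the filter on low counts and are given as counts only. When only the 250 bases before the start were read, the CLEAR core stood in 13.2% of member windows (1.75% of tested genes, 0.907% of all), the E-box in 26.3% (10.01% and 6.86%) and the M-box core in 10.5% (2.35% and 3.72%).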

Other observations

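Reads in the forward orientation, opposite to the sense strand, were few at most members. Lipa was the exception. Of its oriented reads 20.5% to 24.6% were forward in the LPL overexpression libraries and 22.9% to 25.5% in the controls, against 2.60% to 2.88% and 2.48% to 3.30% for Ctsa, the next of the 43. In CPM of the sense total these forward reads of Lipa came to 20.7 to 26.9 with LPL overexpression and 25.0 to 28.1 in the controls, ranges that overlap. They are not part of the counts tested.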
